A study of Mus musculus with 24 samples.

Results

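The 10 genes described here belong to the Hedgehog and Wnt pathways and were chosen by name from the 37147 genes on the array. They are the ligand Shh, the receptor Ptch1, the ligand-binding inhibitor Hhip and the transcription factors Gli1 and Gli2 of the Hedgehog pathway, and the ligands Wnt4, Wnt7b and Wnt11, the transcription factor Lef1 and the feedback inhibitor Axin2 of the Wnt pathway. Their 12 probes were measured in 24 whole kidneys of age-matched male mice about 1 month old, 1 kidney per array. The 6 control kidneys were of genotype mgb+/+ and the 18 others of genotype mgb-/-, the megabladder mutant, in which the bladder muscle fails to form and the upper urinary tract becomes obstructed. Ultrasound of the parenchyma that was left placed the mgb-/- kidneys into a mild (7), a moderate (5) and a severe group (6). No kidney received a treatment. Whether any of these kidneys came from the same mouse is not given, so p-values measure only the spread between kidneys, some of which may share an animal.

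A Hedgehog ligand binds Ptch1 and thereby frees Smo, which turns the Gli proteins into activators. Gli1, Ptch1 and Hhip are themselves targets of the pathway, and the latter pair restrain it by binding the ligand. In the canonical Wnt pathway a ligand stabilizes beta-catenin, which acts with Lef1 and the Tcf proteins on genes such as Axin2, which feeds back on the pathway. In the developing kidney Shh is made in the medullary collecting duct and the urothelium of pelvis and ureter and acts on the surrounding stroma, where smooth muscle forms. Wnt7b is made in the collecting duct, Wnt11 at the ureteric tips and Wnt4 in the early nephron and later in the medulla.

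Each value is the log2 of a spot's background-subtracted intensity relative to the 75th percentile of its array, so 0 is that percentile and each unit is a doubling. Tests were made for 8 of the 10 genes, those with a probe well above background on 5 or more arrays. Gli2, with 1 probe, did so on 1 of 24 arrays, and the probes of Axin2 on 3 and 2 arrays. The whole array gave 27958 tested genes. Per array, 55.4% to 70.7% of probes stood well above background and the 75th percentile was 496 to 968 intensity units. The arrays sat on 3 slides, each with 2 control and 6 mgb-/- kidneys. The array of severe replicate 4 differed from the others, in that 979 of its 22134 bright spots (4.42%) had lost at least 8-fold against the other arrays, where this share was 0.0045% to 0.388%. Adrenal cortex genes stood far above the rest in mild replicate 4 and moderate replicate 1, with summed levels of 255 and 243 times the 75th percentile against 0.375 to 5.77 in the other 22 kidneys. The summed level of 8 proximal tubule markers was 1116 to 1954 in 23 kidneys and 535 in severe replicate 5. That kidney also stood apart in the stromal markers, with a summed level of 375 against 88.9 to 143 in the other severe kidneys, and without it 4 of the genes below were called in severe kidneys in place of 5, Shh being lost (adjusted p 0.0819 in limma). The log2 differences of Hhip, Wnt4, Lef1 and Wnt7b were then 2.17, 1.91, 1.17 and 0.99.

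In severe mgb-/- kidneys 5 of the 8 tested genes were higher than in control kidneys at an adjusted p under 0.05 (limma, Benjamini-Hochberg over all genes), and none was lower. They were Hhip, Wnt4, Shh, Lef1 and Wnt7b. Over all genes 6.57% were called higher and 16.1% were called in either direction in that comparison. The median log2 difference of the 8 genes was 1.08, against 0.02 over all genes. For 3 of them, Hhip, Wnt4 and Lef1, every severe kidney was above every control, as was the case for 2.87% of all genes. Moderate kidneys had 0 of 8 genes called against control, with 1 at an unadjusted p under 0.05 and 1.2% of all genes called. Mild kidneys also had 0 of 8, with 1 at an unadjusted p under 0.05 and 6.02% of all genes called. Taking all mgb-/- kidneys as 1 group, Hhip and Lef1 were called, where 13.3% of all genes were called.

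**Figure D1:**
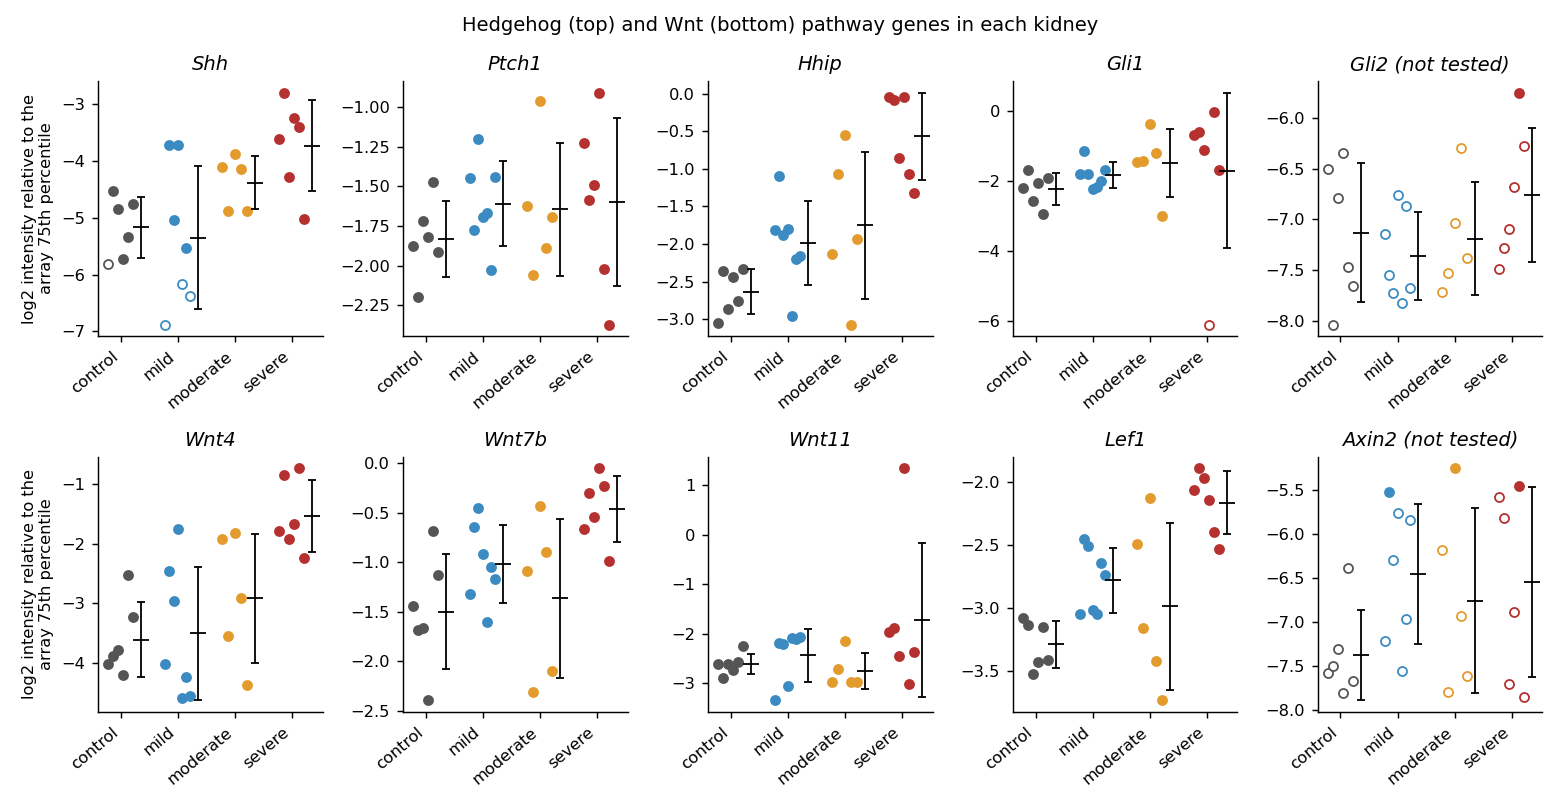
Log2 intensity relative to the array's 75th percentile for the 10 genes in each of the 24 kidneys, by group. Filled points stood well above background and open points did not, the horizontal dash is the group mean and the bar 1 SD. For Hhip, Wnt4 and Lef1 all 6 severe kidneys lie above all 6 controls, while in Gli1 and Wnt11 a single severe kidney, replicate 4, lies far from the others.

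Sequence upstream of the start is shown for Hhip, Wnt4 and Lef1, the genes that were called in severe kidneys under every setting tried. Each line holds the 250 bases before a RefSeq start, read 5′ to 3′ on the gene's strand (build GRCm38.p6). Capitals mark CTTTG or CAAAG, the core letters bound by Lef1 and Tcf proteins on either strand, and would mark ACCACCC or GGGTGGT, the core of the GLI site, were it there.
Hhip, chr8:80058009-80058258, minus strand: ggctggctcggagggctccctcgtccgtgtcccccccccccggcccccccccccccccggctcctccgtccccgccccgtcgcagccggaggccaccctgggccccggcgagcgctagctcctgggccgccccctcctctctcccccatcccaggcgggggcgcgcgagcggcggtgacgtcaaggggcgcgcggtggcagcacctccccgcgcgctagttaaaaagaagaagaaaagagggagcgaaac
Wnt4, chr4:137277385-137277634, plus strand: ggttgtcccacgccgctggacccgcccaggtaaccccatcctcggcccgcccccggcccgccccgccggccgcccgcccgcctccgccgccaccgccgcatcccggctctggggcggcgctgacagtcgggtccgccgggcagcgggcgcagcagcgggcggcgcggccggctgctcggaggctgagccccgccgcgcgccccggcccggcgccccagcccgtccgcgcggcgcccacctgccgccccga
Lef1, chr3:131110047-131110296, plus strand: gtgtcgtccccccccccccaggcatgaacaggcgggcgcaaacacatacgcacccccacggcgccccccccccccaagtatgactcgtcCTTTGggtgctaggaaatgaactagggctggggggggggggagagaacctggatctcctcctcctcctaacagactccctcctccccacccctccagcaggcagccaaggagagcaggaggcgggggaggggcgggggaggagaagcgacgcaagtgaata
The Hhip window was 76.0% G and C and the Wnt4 window 85.2%, against a median of 52.4% over 32851 windows, and neither held either motif. Lef1 had windows at 4 starts, all with CTTTG, a motif in 48.6% of all windows, and the window at 131112541 also held the GLI letters, which occur in 3.92%. Gli2 held the GLI letters once. Of the 2 Wnt11 windows, that at 98834862 held CTTTGAT, a longer form that contains CTTTG and occurs in 3.21% of windows. The windows of Ptch1 and Axin2 held none of these letters. A match is a description of the letters only.

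Shh, the ligand, ranged in control kidneys from -5.82 to -4.54 with a median of -5.09. The 7 mild kidneys spanned -6.88 to -3.73 with a median of -5.54, so they reached both below and above the controls. The 5 moderate kidneys were at -4.11, -4.88, -3.87, -4.15 and -4.88. Severe kidneys ranged from -5.02 to -2.80 with a median of -3.52, and 5 of the 6 lay above the highest control. The mean rose from -5.17 ± 0.54 (SD, n = 6) in control to -3.73 ± 0.80 (SD, n = 6) in severe kidneys, a log2 difference of 1.44 ± 0.48 (SE) or 2.71-fold, with an adjusted p of 0.0445 in limma. That call was close to the threshold. It was lost in 13 of the 24 fits that each left out 1 kidney (control replicates 1, 3, 4, 5 and 6, mild 3 and 6, moderate 1 and 4, and severe 1, 2, 4 and 5), and adjusted p-values over all 38 alternatives ran from 0.0133 to 0.107. Shh was a dim spot, not well above background in 1 control and 3 mild kidneys, and its difference was 0.38 (adjusted p 0.0659 in limma) after normexp background correction and 0.64 (adjusted p 0.0465) in the authors' normalized table. Within the slides the difference was 2.97, 1.09 and 0.83, from 1, 2 and 3 severe kidneys against 2 controls each. With slide as a block the log2 difference was 1.41, with an adjusted p of 0.0651 in limma. Shh was printed as 10 spots on every array, and a single one of these fell into the patch of lost signal of severe replicate 4 and had been left out as an outlier. Against mild kidneys the severe ones were 1.62 ± 0.46 (SE) higher on the log2 scale, with an adjusted p of 0.145 in limma. The highest mild values, both -3.73, came from replicates 2 and 4.

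Hhip, the membrane protein that captures Hedgehog ligands, was the Hedgehog gene of the 10 with the largest difference between severe and control kidneys. Control kidneys ranged from -3.05 to -2.33 with a median of -2.60 and mild kidneys from -2.95 to -1.09 with a median of -1.88. The moderate values were -2.13, -1.06, -0.56, -3.07 and -1.94, and severe kidneys ranged from -1.32 to -0.04 with a median of -0.47. All 6 severe kidneys were above every control, and so were 6 of 7 mild and 4 of 5 moderate ones. The group means ran in the order control, mild, moderate and severe, from -2.63 ± 0.30 to -0.57 ± 0.58 (SD, n = 6 each). Severe against control gave 2.06 ± 0.35 (SE, log2), or 4.18-fold, with an adjusted p of 0.00106 in limma. Mild against control gave 0.65 ± 0.34 (SE, log2) and moderate against control 0.88 ± 0.37, with adjusted p-values of 0.279 and 0.204 in limma. Mild and moderate, the neighbours in the middle, differed by 0.23 ± 0.35 (SE, log2). Over all mgb-/- kidneys the difference from control was 1.18 ± 0.38 (SE, log2) with an adjusted p of 0.0389 in limma, with 16 of 18 kidneys above the highest control, and this call was lost without any of the 6 controls or without mild replicate 2, moderate replicate 3 or severe replicate 3, where adjusted p-values were 0.0508 to 0.0916. A second Hhip probe, which stood well above background on 5 arrays, all of mgb-/- kidneys, and was not the probe tested because it was the dimmer one, had means of -7.18 in control and -5.02 in severe kidneys.

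Ptch1, the Hedgehog receptor, differed little. Control kidneys ranged from -2.20 to -1.47 and severe kidneys from -2.37 to -0.91, so that the severe group held both the lowest and the highest of all 24 values. The mild group ranged from -2.03 to -1.20 and the moderate group from -2.06 to -0.96. The log2 difference of severe from control was 0.23 ± 0.21 (SE) with an adjusted p of 0.484 in limma, and over all mgb-/- kidneys it was 0.22 ± 0.17 (SE) with an adjusted p of 0.419.

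Gli1, the transcription factor whose transcript is a common readout of Hedgehog activity, turned on a single spot. Control kidneys ranged from -2.93 to -1.69 with a median of -2.13 and mild kidneys from -2.24 to -1.14 with a median of -1.82. The moderate values were -1.46, -1.43, -0.37, -1.20 and -3.01. In severe kidneys replicates 1 to 6 were at -0.68, -0.62, -1.11, -6.09, -0.04 and -1.70. Replicate 4 was thus the lowest of all kidneys and not well above background, while 4 of the other severe values lay above every control. Across all 6 the difference from control was 0.52 ± 0.68 (SE, log2) with an adjusted p of 0.638 in limma.

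The Gli1 spot of that array lay inside its patch of lost signal. Of the 61 bright spots within 6 rows and columns of it, 25 had lost at least 8-fold against the other arrays, and the Gli1 spot itself stood at -4.65 (log2) relative to their median. No other member's only spot lay in a patch. When spots in patches of lost signal were left out, on a rule set after the array had been seen, severe kidneys exceeded control kidneys by 1.40 ± 0.36 (SE, log2) with an adjusted p of 0.0137 in limma, and 6 of the 8 genes were called. With array quality weights the difference was 1.04 with an adjusted p of 0.0455. Over all mgb-/- kidneys it was 0.53 with the spot and 0.79 without, with adjusted p-values of 0.552 and 0.0947 in limma. Gli2 stayed at background, between -8.04 and -5.75, and stood above it only in severe replicate 5.

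**Figure D2:**
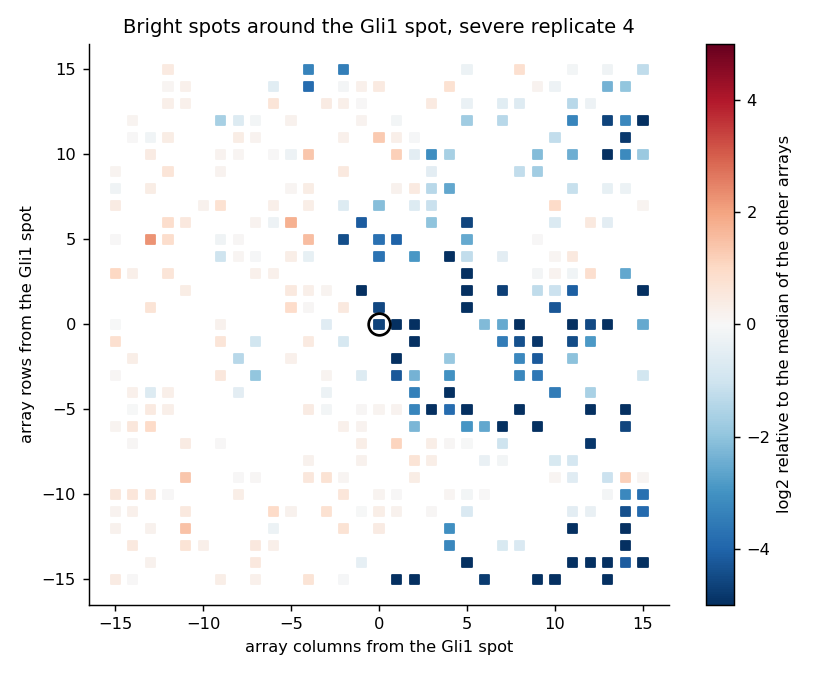
Bright spots within 15 rows and columns of the Gli1 spot (circle) on the array of severe replicate 4, coloured by log2 intensity relative to the median of the other arrays, cut at 5 in both directions. Dark blue spots, which lost at least 8-fold, are scattered mainly over the right side of the area and reach the Gli1 spot, whose value is -4.65.

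Wnt4, a ligand of the nephron and the medullary stroma, rose in severe kidneys by 2.07 ± 0.49 (SE, log2) or 4.19-fold, with an adjusted p of 0.0106 in limma. Control kidneys ranged from -4.21 to -2.53 with a median of -3.83, and severe kidneys from -2.24 to -0.74 with a median of -1.73, without overlap. Mild kidneys ranged from -4.58 to -1.75 with a median of -4.01, and the moderate ones were at -1.92, -3.55, -1.83, -2.92 and -4.36. The mild mean of -3.50 ± 1.12 (SD, n = 7) lay within the spread of the control mean of -3.61 ± 0.62 (SD, n = 6). Within the slides the difference of severe from control was 3.25, 1.87 and 1.60, from 1, 2 and 3 severe kidneys against 2 controls each. Severe against mild kidneys differed by 1.96 ± 0.48 (SE, log2), with an adjusted p of 0.0633 in limma.

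The pair of kidneys with the highest adrenal cortex signal, mild replicate 4 and moderate replicate 1, were at -1.75 and -1.92 for Wnt4 and at -3.73 and -4.11 for Shh. The kidneys next in adrenal signal varied in both genes. Mild replicate 6, with a summed adrenal level of 5.77, was at -4.23 for Wnt4 and -5.54 for Shh. Mild replicate 2, at 4.96, was at -2.45 for Wnt4 and -3.73 for Shh. Moderate replicate 3, at 4.93, was at -1.83 for Wnt4 and -3.87 for Shh. Without the pair highest in adrenal signal, a choice made after the data were seen, severe kidneys exceeded mild ones in Wnt4 by 2.25 ± 0.43 (SE, log2) with an adjusted p of 0.0192 in limma. All 7 adrenal markers tested were higher on average in severe kidneys than in controls (median log2 difference 0.61), but 0 of the 7 were at an unadjusted p under 0.05 in limma. Their summed level was 0.577 to 1.28 in severe and 0.375 to 0.701 in control kidneys. Cyp11a1, which opens steroid synthesis, was not well above background in any severe or control kidney. The part of adrenal tissue in the levels of Wnt4 and Shh was not tested.

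Wnt7b, the collecting duct ligand, ranged in control kidneys from -2.39 to -0.68 with a median of -1.55 and in severe kidneys from -0.99 to -0.05 with a median of -0.42. Of the 6 severe kidneys 5 were above the highest control. Mild kidneys ranged from -1.60 to -0.45 and moderate kidneys were at -1.09, -2.30, -0.43, -0.90 and -2.09, so both overlapped control and severe kidneys. The rise from control to severe was 1.03 ± 0.30 (SE, log2) or 2.05-fold, with an adjusted p of 0.0249 in limma. Leaving out control replicate 3, control replicate 4 or severe replicate 2 brought it to between 0.0533 and 0.0604, with log2 differences of 1.00, 0.86 and 1.00.

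Wnt11, the ureteric tip ligand, gave a difference that 1 kidney decided. Severe replicates 1 to 6 were at -1.97, -1.89, -2.44, 1.34, -3.01 and -2.36, and control kidneys between -2.88 and -2.25. Replicate 4 was 3.62 higher on the log2 scale than the median of the other arrays. None of the 66 bright spots near its Wnt11 spot had lost signal. That check counts lost signal only, so it cannot show whether a raised value is sound. The log2 difference of severe from control was 0.89 ± 0.47 (SE) with an adjusted p of 0.203 in limma, and without severe replicate 4 it was 0.27.

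Lef1, the transcription factor that pairs with beta-catenin, was higher in severe kidneys with a narrow spread. Control kidneys ranged from -3.53 to -3.08 with a median of -3.28 and severe kidneys from -2.53 to -1.89 with a median of -2.10. All 7 mild kidneys, from -3.05 to -2.45, were also above every control, as for 3.0% of all genes, while the moderate ones were spread at -2.49, -3.16, -2.13, -3.42 and -3.73. The difference of severe from control was 1.13 ± 0.21 (SE, log2) or 2.18-fold, with an adjusted p of 0.00209 in limma. Mild against control was 0.51 ± 0.20 (SE, log2), adjusted p 0.133 in limma. Over all mgb-/- kidneys it was 0.66 ± 0.21 (SE, log2), above the highest control in 15 of 18 kidneys, with an adjusted p of 0.0438 in limma. That call was lost in 15 of the 24 fits that each left out 1 kidney (any control, mild replicates 2, 3 and 6, moderate 1 and 3, and severe 1 to 4), with adjusted p-values up to 0.11. Axin2, the other Wnt readout among the 10, could not be tested. The probe that stood above background on 3 arrays ranged from -7.81 to -6.38 in control kidneys, where it was never well above background, and from -7.85 to -5.25 in mgb-/- kidneys, where it was so in 1 kidney of each grade.

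**Figure D3:**
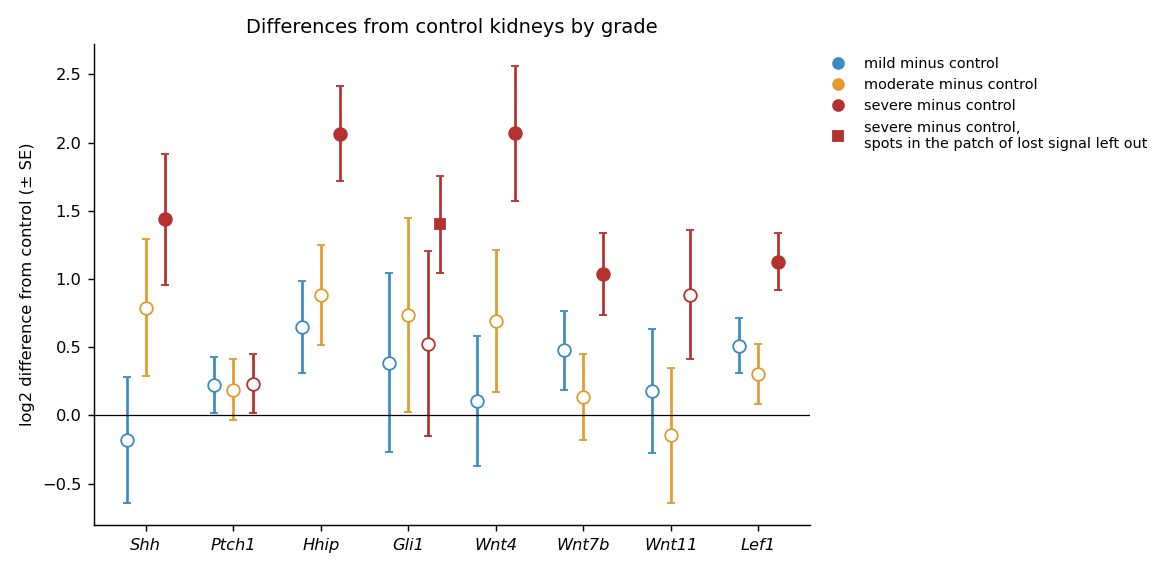
Log2 difference (± SE) of mild, moderate and severe kidneys from the 6 control kidneys for the 8 tested genes. Filled symbols passed an adjusted p of 0.05, and the square gives Gli1 in severe kidneys with the spots in patches of lost signal left out. The severe difference is filled for 5 genes, and for Ptch1 the 3 differences lie between 0.19 and 0.23.

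Between the grades themselves no gene of the 10 was called. In severe against mild kidneys 0 of 8 passed in limma, with 4 at an unadjusted p under 0.05, Shh, Hhip, Wnt4 and Lef1, and 0.587% of all genes passed. The differences of Hhip and Lef1 there were 1.42 ± 0.34 and 0.62 ± 0.20 (SE, log2), with adjusted p-values of 0.0595 and 0.228 in limma. At the same threshold Hhip passed in 10 and Wnt4 in 7 of 39 alternatives. In severe against moderate kidneys 0 of 8 passed, with 5 at an unadjusted p under 0.05 and 0.00715% of all genes called. In moderate against mild kidneys 0 of 8 passed in limma, with 0 at an unadjusted p under 0.05, and 0.0% of all genes were called.

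The other genes of the pathways were described from lists of their parts. Of 22 further Hedgehog genes 20 were tested, of which 5 were higher and 1 lower in severe than in control kidneys. Of 75 further Wnt genes 65 were tested, of which 10 were higher and 6 lower. Their median log2 differences were 0.35 and 0.12, against 0.02 over all genes. The background for these counts and for those of the lists below is 6.57% of all genes higher and 9.56% lower.

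Among Hedgehog ligands and the proteins that release them, 4 of 6 passed, all higher. Scube2, which carries the lipid-modified ligand away from the cell, showed the largest difference of this list, 2.57 (log2, adjusted p 0.000323 in limma), from a mean of -1.06 in control to 1.51 in severe kidneys. Dhh, a second ligand, was 0.92 and Hhat, the enzyme that attaches the palmitate, 0.37 higher. Scube2 was also 2.08 higher in severe than in mild kidneys (log2, adjusted p 0.00725 in limma). Of 7 receptors and co-receptors Hhip and Boc, a co-receptor at 0.74, were higher, and Smo, the signal transducer, was lower by a log2 value of -0.39. Both Smo and Boc also passed in mild against control kidneys, at -0.40 and 0.65 (adjusted p 0.0314 and 0.034 in limma). None of 7 transcription factors and regulators passed in limma, with 3 at an unadjusted p under 0.05. Of 8 target genes Hhip and Foxl1, a forkhead factor of stroma that was 1.06 higher, passed.

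Of 16 Wnt ligands 4 passed, all higher, namely Wnt4, Wnt7b, Wnt10a by 1.75 and Wnt5a by 0.95 (log2). Of 15 receptors 4 were higher, Fzd10 by 1.72, Fzd3 by 0.87, Ror2, which binds Wnt5a, by 0.82 and Fzd4 by 0.59, and 3 were lower, among them Fzd8 at -0.64 and Fzd1 at -0.56. Fzd3, Ror2, Fzd4, Fzd8 and Fzd1 also passed in mild against control kidneys, in the same directions. Fzd10 did not, at -0.37, and was 2.09 higher in severe than in mild kidneys (log2, adjusted p 0.0176 in limma). It stood well above background in 6 of 6 severe kidneys and in 2 kidneys of each other group, so its difference is against values mostly at background. Of 10 secreted inhibitors Dkk3 was 0.92 higher, and Dkk2 and Frzb, which binds Wnt ligands, were lower at -0.60 and -0.52, and these 3 passed in mild kidneys too, at 0.89, -0.82 and -0.96. Rspo1, a secreted amplifier of the pathway, was the member of 7 genes of the R-spondin branch that passed, at 1.70. Of 15 genes of beta-catenin signal transduction Lef1 and Tcf7l2, at 0.76, passed, and the list's median was -0.003. Of 12 Wnt target genes Cd44 and Lef1 were higher, at 1.82 and 1.13, and Sp5, a zinc finger factor, was lower at -1.50. In moderate against control kidneys none of the listed pathway genes passed in limma, with 5 of 6 Hedgehog ligand and release genes and 5 of 15 Wnt receptors at an unadjusted p under 0.05.

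**Figure D4:**
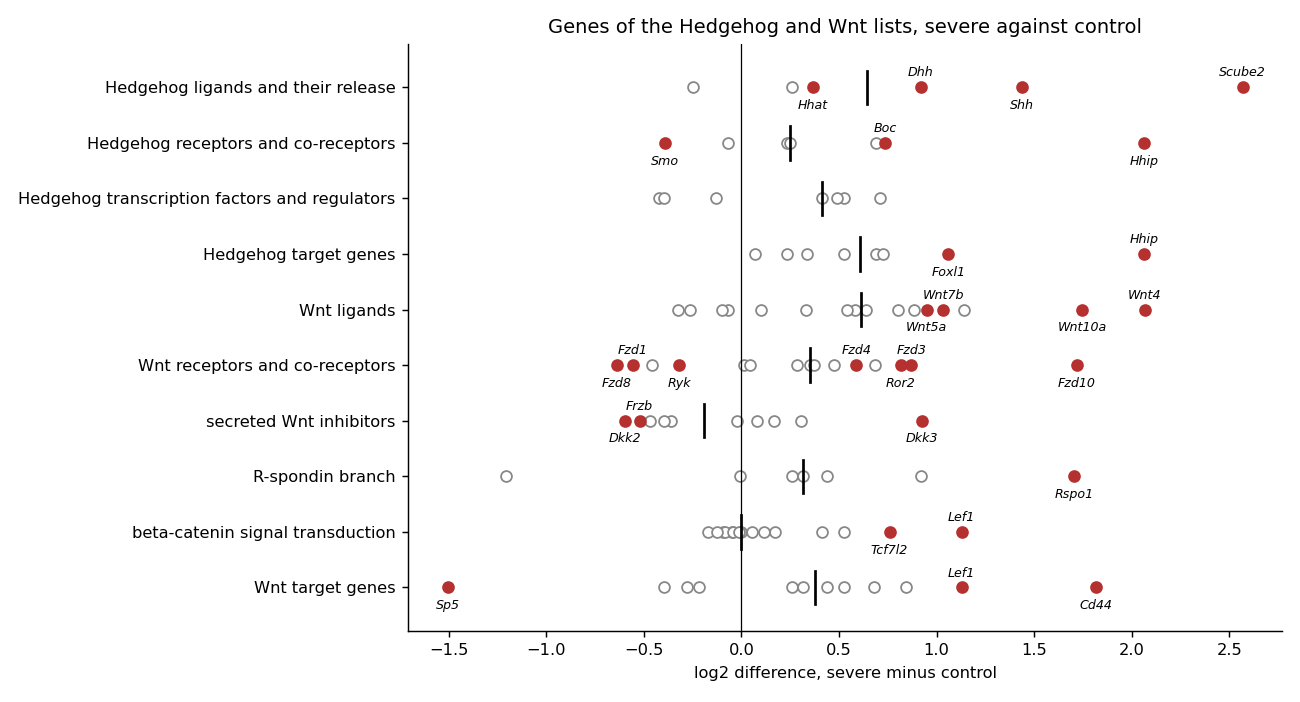
Log2 difference of severe from control kidneys for every tested gene of the 10 pathway lists, 1 row per list. Red points passed an adjusted p of 0.05 and are named, open points did not, and the black bar is the median of the list. The lists of Hedgehog ligands, Wnt ligands and Hedgehog targets have medians of 0.61 to 0.64, and the list of beta-catenin signal transduction lies around 0.

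Whole kidneys were measured, so a change in the number of cells of a type and a change in RNA per cell cannot be told apart. Markers of several cell types moved with grade. Of 10 urothelium markers 9 were higher in severe than in control kidneys, among them the uroplakin Upk1b by 3.84 and Krt5, a basal keratin, by 3.22 (log2), and 7 were higher in severe than in mild kidneys. The marker that did not pass was Trp63, at -0.07. The summed level of the 10 was 15.8 to 29.0 in control, 15.4 to 68.8 in mild, 24.3 to 62.7 in moderate and 83.3 to 258 in severe kidneys. None of the 10 was absent, since each stood well above background in all 24 kidneys. Of 8 smooth muscle markers 3 passed, higher in severe kidneys, Tagln by 1.66, Acta2 by 1.59 and Cnn1 by 1.54. The summed level of the 8 was 28.2 to 49.0 in control and 54.3 to 136 in severe kidneys, the highest being severe replicate 5. Of 9 collecting duct markers Gata3 and Aqp2 passed, higher by 1.04 and 1.03, and of 10 stromal markers Dcn did, by 0.89. Without the threshold, all 8 smooth muscle and all 10 stromal markers were higher on average. In each of these lists 6 were at an unadjusted p under 0.05 in limma, with medians of 1.24 and 0.79 (log2). Of the collecting duct markers 8 were higher on average, 3 at such a p, with a median of 0.225. Slc5a2, the glucose transporter of the proximal tubule, was the 1 of 8 tubule markers that passed, at -1.16. Of those 8, 1 was higher on average and 4 were at such a p, with a median of -0.47. None of 9 leukocyte, 7 T cell and 5 adipose markers passed in limma, with 1, 1 and 0 at an unadjusted p under 0.05. The adipose markers varied widely, with summed levels of 1.27 to 34.7 in control and 0.245 to 66.0 in severe kidneys. The summed leukocyte level was 3.53 in severe replicate 4, against 33.5 to 59.1 in the other severe kidneys. The sum weighs the brightest markers most. The mean log2 level of the same markers was -2.94 in that kidney, against -2.39 to -1.54 in the other severe kidneys. That array had a patch of lost signal, and whether spots of leukocyte markers lay in it was not tested. The part of these cell types in the results of the 10 genes was not tested.

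Over the 18 mgb-/- kidneys 6 relations between a ligand and a gene of its pathway's response were computed, with two-sided permutation tests adjusted by Benjamini-Hochberg over the 6. Shh and Hhip rose together, with a Pearson r of 0.63 (permutation p 0.00538, adjusted 0.0108) and a Spearman rho of 0.68 (p 0.00205, adjusted 0.0041). Wnt4 and Lef1 had an r of 0.69 (permutation p 0.00184, adjusted 0.00552) and a rho of 0.71 (p 0.00155, adjusted 0.0041). For Wnt7b and Lef1 r was 0.79 (permutation p 0.00015, adjusted 0.0009) and rho 0.79 (p 0.00014, adjusted 0.00084). Without the 2 kidneys farthest from the median of the ligand, r was 0.68, 0.71 and 0.70 for the 3 pairs.

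How much of each relation lay between the grades was not tested. Within the 7 mild and the 6 severe kidneys r was 0.60 and 0.74 for Shh with Hhip, 0.79 and 0.37 for Wnt7b with Lef1, and 0.20 and 0.20 for Wnt4 with Lef1, and none of the 6 relations passed within either grade after adjustment. Within the 3 slides, of 6 mgb-/- kidneys each, r was 0.39, 0.84 and 0.97 for Shh with Hhip, 0.54, 0.81 and 0.85 for Wnt4 with Lef1, and 0.62, 0.88 and 0.66 for Wnt7b with Lef1. Of these, Shh with Hhip and Wnt4 with Lef1 passed on slide 3 (exact permutation, adjusted p 0.0333 and 0.0417 for r), and none passed on slides 1 and 2.

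The other 3 relations did not pass over the 18 kidneys. For Shh and Ptch1 r was 0.15 (permutation p 0.545, adjusted 0.654) and rho 0.11 (p 0.661, adjusted 0.661). For Wnt11 and Lef1 r was 0.46 (permutation p 0.0477, adjusted 0.0715) and rho 0.50 (p 0.0346, adjusted 0.0519), and without severe replicate 4, the kidney highest in Wnt11, r was 0.58 (permutation p 0.0158, adjusted 0.0189) and rho 0.46 (p 0.0648, adjusted 0.0778). For Shh and Gli1 r was 0.09 (permutation p 0.74, adjusted 0.74) and rho 0.45 (p 0.0612, adjusted 0.0735), and without severe replicate 4, whose Gli1 spot lay in the patch of lost signal, r was 0.60 (permutation p 0.0104, adjusted 0.0189) and rho 0.69 (p 0.00314, adjusted 0.00628).

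The 8 genes were also set against the mean log2 level of 4 marker lists over the same 18 kidneys, a family of 32 relations added after the data were seen. Of these, 10 passed by r and 11 by rho after adjustment. Shh followed the urothelium markers with an r of 0.88 (permutation p 2e-05, adjusted 0.00021) and a rho of 0.83 (p 7e-05, adjusted 0.00075). Wnt4 did so with an r of 0.89 (permutation p 1e-05, adjusted 0.00016, p being the smallest the permutations can give) and a rho of 0.84 (p 3e-05, adjusted 0.00075). Within mild and severe kidneys these r were 0.88 and 0.87 for Shh and 0.80 and 0.97 for Wnt4, and without the 2 kidneys farthest from the median of the markers 0.81 and 0.87. Hhip had an r of 0.68 with them (permutation p 0.00181, adjusted 0.0116) and a rho of 0.68 (p 0.00258, adjusted 0.0118), with 0.74 within mild, 0.37 within severe kidneys and 0.64 without the 2 farthest.

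Wnt7b followed the collecting duct markers, with an r of 0.87 (permutation p 1e-05, adjusted 0.00016) and a rho of 0.81 (p 0.00014, adjusted 0.00112), 0.88 within mild and 0.63 within severe kidneys, and 0.77 without the 2 farthest. Wnt7b also had an r of 0.65 with the urothelium markers (permutation p 0.00319, adjusted 0.0163) and a rho of 0.76 (p 0.00042, adjusted 0.00269). Ptch1 had an r of 0.65 with the collecting duct markers (permutation p 0.00368, adjusted 0.0163) and a rho of 0.67 (p 0.00351, adjusted 0.0125). Wnt4 had an r of 0.64 with the smooth muscle markers (permutation p 0.00457, adjusted 0.0163), where rho, at 0.51, did not pass (p 0.034, adjusted 0.0815). Gli1 followed the smooth muscle markers, with an r of 0.66 (permutation p 0.00091, adjusted 0.00728) and a rho of 0.82 (p 5e-05, adjusted 0.00075), 0.57 within mild and 0.85 within severe kidneys, 0.68 without the 2 farthest and 0.83 without severe replicate 4. Lef1 had an r of 0.64 with the urothelium markers (permutation p 0.00429, adjusted 0.0163) and 0.58 with the collecting duct markers (permutation p 0.0103, adjusted 0.0331). By rho, though not by r, Gli1 also passed with the urothelium markers and gave the 1 relation with the stromal markers that passed. The relation of Gli1 was thus not particular to smooth muscle. These values describe levels that moved together in whole kidneys.

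**Figure D5:**
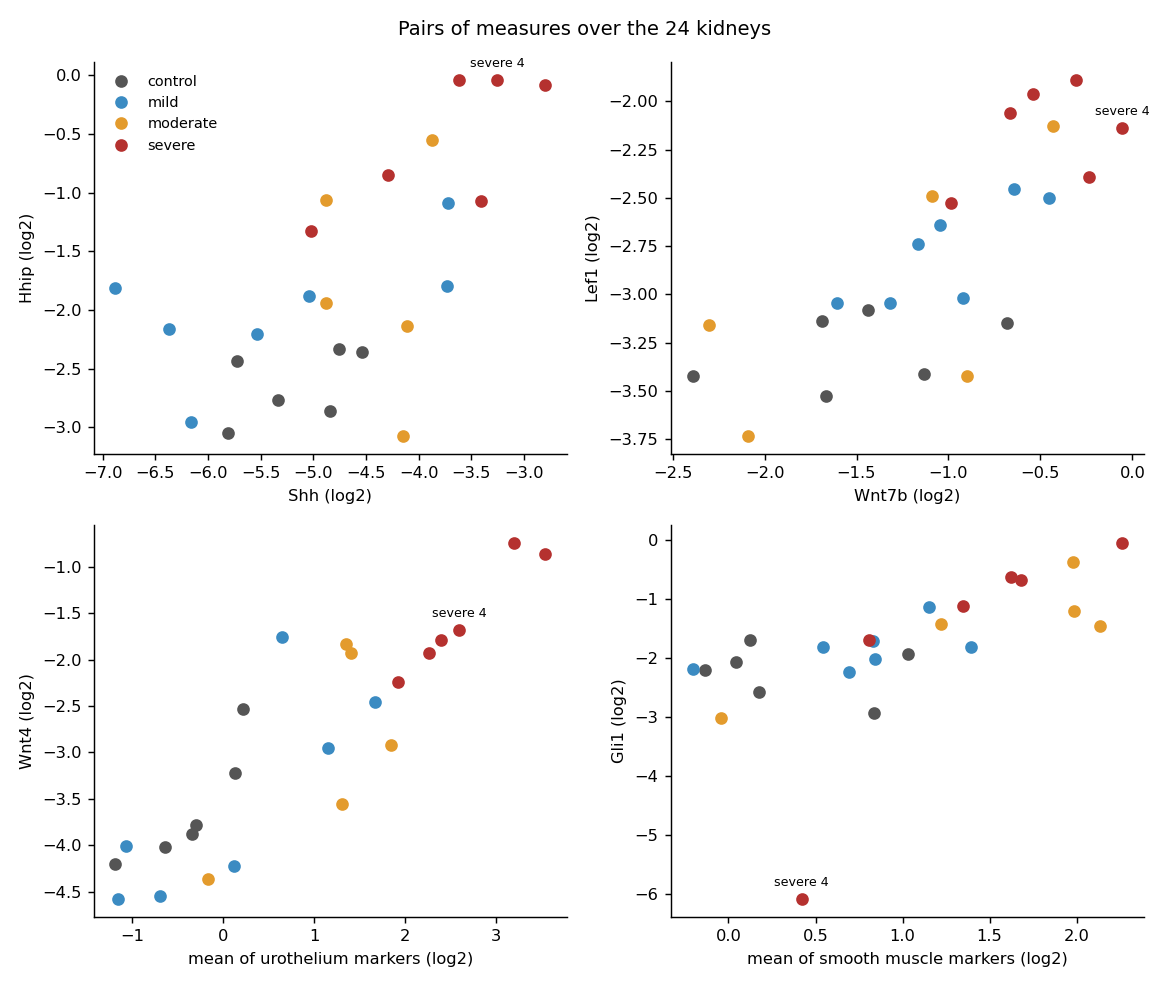
Levels of 4 pairs in the 24 kidneys, coloured by group, all on the log2 scale relative to the 75th percentile: Hhip against Shh, Lef1 against Wnt7b, Wnt4 against the mean of the urothelium markers, and Gli1 against the mean of the smooth muscle markers. Over the 18 mgb-/- kidneys r is 0.63, 0.79, 0.89 and 0.66, and severe replicate 4 lies far below the others in Gli1, at -6.09.

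For each of the 8 genes up to 3 genes with the most similar pattern over the 24 kidneys were named by Pearson's r, as a description. Shh was closest to Adamdec1 (r 0.95), Cyp4f15 and Sptssb (0.92 each), Hhip to Chst5 (0.89), Elovl4 and Epha8 (0.85 each), and Ptch1 to Ddx6 (0.85), Taf8 (0.85) and B230219D22Rik (0.83). Wnt4 was closest to Klrg2 (0.94), Styk1 and Sidt1 (0.92 each), Wnt7b to Proser2, Fam174b and Muc20 (0.95 each), and Lef1 to Smoc2 (0.87), Samd12 and Flt3l (0.86 each). The genes closest to Gli1 and Wnt11 depended on severe replicate 4. Over all kidneys they were Pcdhb6 (0.94), Tm6sf1 (0.93) and Rab27b (0.92) for Gli1, and included Tal1 (0.91) and Ythdc1 (0.78) for Wnt11. Without that kidney they were Sytl2 (0.94), Ano1 (0.92) and Nexn (0.90) for Gli1, and Mapk15 (0.85), Corin and BC025920 (0.81 each) for Wnt11.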

How the data were processed

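RNA of 24 whole kidneys was labelled with Cy3 and hybridized to 1-colour Agilent mouse arrays, 1 kidney per array. The deposited files hold spot intensity as read by Agilent Feature Extraction 10.10, in which background and spatial trend had been subtracted, and a table of intensity that the authors had normalized between arrays by a method not given in the sources used here. Groups were taken from the sample labels. From the processed intensity of each spot, log2 was taken and the 75th percentile of the array's non-control spots was subtracted. Without the spots marked as outliers, the mean over a probe's spots was taken. The filter asked for 5 arrays well above background (38834 of 55681 probes), and the brightest probe stood for a gene. RefSeq accessions named 26762 probes, and 28919 stayed under the name in the file. No spot was saturated, and 324 of 27958 genes lacked a value on an array.

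Groups were compared with limma 3.58.1 (R 4.3.3; lmFit, eBayes), with 1 fit of mgb-/- against control and 1 fit of the 4 groups, with Benjamini-Hochberg adjustment across all tested genes. The number of arrays limits the precision. Relations used 100000 permutations, or all of them for under 8 kidneys. Of 10 planned relations 6 could be computed, as Gli2 and Axin2 had no tested probe. Pathway genes were named by the largest changes among those that passed, up to 6 per list, and similar genes by the highest r, of which 1 is not reported here. Promoter windows came from RefSeq (GRCm38.p6) for 7 of the 10 genes, and those of Shh, Gli1 and Wnt7b were not used here. The alternatives were quantile, median and normexp processing (the latter on median spot signal), the authors' table, other filters and probe rules, array weights, slide or replicate as a block, and leaving out each kidney. The code was tested on simulated data. The genes and lists were chosen with earlier results of these data known. Marking of lost spots, leaving out the pair of kidneys high in adrenal genes and the relations to markers were added after the data were seen.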

Additional observations from a re-analysis of the deposited data

Results flagged for a closer look

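In 32 groups of kidneys checked for a single distant value, 2 were found, where chance gives about 1 in 20 groups. Both were severe replicate 4, which was at -6.09 for Gli1 (log2 relative to the 75th percentile), far below the other severe kidneys, and at 1.34 for Wnt11, far above them. Its Gli1 spot lay in a patch of lost signal and its Wnt11 spot did not, which does not bear on a raised value. Fzd10 and Scube2 differed between severe and mild kidneys in their change from control, by 2.09 and 2.08 on the log2 scale (limma, adjusted p 0.0176 and 0.00725). Fzd10 stood well above background in 2 control and 2 mild kidneys, so the size of its difference rests on values that were mostly at background in those groups. A second Hhip probe, not used in the tests, stood well above background on 5 of 18 arrays of mgb-/- kidneys and on 0 of 6 control arrays. The Axin2 probes did so on 3 and 2 of the 18 arrays of mgb-/- kidneys, again on 0 of 6 control arrays. With so few arrays, the Axin2 counts do not show that this gene was detected in mgb-/- kidneys only.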

How the results depend on the processing

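In severe against control kidneys Hhip, Wnt4 and Lef1 passed in all 39 alternatives. The count of genes called there, 5 of 8, was 3 under median scaling and 3 to 5 when 1 kidney was left out, with 3 without control replicate 3, control replicate 4 or severe replicate 2. In mgb-/- against control, 2 genes were called. This was 0 in the authors' table, with no filter on dim probes and with normexp, 1 with a fold of at least 2, the mean of a gene's probes, median scaling, quantile normalization or without the 2 kidneys highest in adrenal genes, 3 with array weights, where Wnt7b was also called (adjusted p 0.044 in limma), and 0 to 2 when 1 kidney was left out. In severe against mild the count of 0 became 2 at an adjusted p under 0.1, in the authors' table and with normexp, 3 with array weights, 1 with a filter on all 24 arrays, median scaling, quantile normalization or without the 2 adrenal-high kidneys, and 0 to 3 when 1 kidney was left out. In mild against control it became 1 with array weights and in a fit of those groups alone, and in severe against moderate it was 0 to 1 when 1 kidney was left out, with 1 without moderate replicate 3. With normexp the severe differences of Wnt4 and Lef1 were 1.29 and 0.68. The number of relations that passed, 3 of 6, was 0 within slide 1, slide 2, mild and severe kidneys and 5 without severe replicate 4. The cause was not tested.

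A pairing of kidneys by replicate number was not seen. Over 33 same-numbered pairs of kidneys from different groups the median correlation of deviations from the group means was 0.004, and 10 were over 0.1. Other-numbered pairs had a median of 0.0032, with 58 of 182 over 0.1. Pairs on the same slide had a median of 0.0721, against -0.0349 for pairs on different slides. These correlations cannot tell whether any kidneys came from the same mouse. With the replicate block the counts were 0 in mgb-/- against control and 3 in severe against control.

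Over all genes the calls ranged over the alternatives from 863 to 8632 around 3731 in mgb-/- against control, from 1318 to 7571 around 4509 in severe, from 523 to 7527 around 1684 in mild and from 10 to 5244 around 336 in moderate against control, from 0 to 549 around 164 in severe against mild, from 0 to 202 around 2 in severe against moderate and from 0 to 512 around 0 in moderate against mild. The upper ends were reached with array weights. Of the genes called in severe against control 40.7% were higher, which was 51.3% with quantile normalization, 50.2% in the authors' table and 22.5% with median scaling, which shifted the median of all genes to -0.154 on the log2 scale. Dim spots limit Shh, Gli2 and Axin2.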
